A study of Mus musculus with 32 samples.

Results

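B1 elements, the mouse members of the Alu family of short interspersed nuclear elements (SINEs), were followed as sources of RNA tags in RADICL-seq, a method that joins an RNA to nearby chromatin through a bridge adapter and reads both ends as a pair of tags. An RNA-DNA interaction was counted as B1 when its RNA tag lay in a repeat of class SINE and family Alu on the same strand, and 410706 of 25231081 distinct interactions met this rule, which was 1.63% of the total. Tags that overlapped no annotated repeat, 22391945 interactions in all, served as the comparison. The study asked how RNAs contact chromatin in mouse embryonic stem cells (mESC, the male line R08) and in mouse oligodendrocyte progenitor cells (mOPC, the immortalised line Oli-neu), with 1 cell line standing for each cell type. There were 15 libraries in 6 groups. The groups mESC 1FA and mOPC 1FA (3 libraries each) were crosslinked with 1% formaldehyde, and mESC 2FA (3 libraries) with 2% formaldehyde. The group mESC ActD4 (2 libraries) received actinomycin D, which blocks transcription, at 5 µg/ml for 4 h and was then crosslinked with 1% formaldehyde too. The groups mESC NPM and mOPC NPM (2 libraries each) were also fixed with 1% formaldehyde, but the crosslinks were undone and proteins digested before the RNA was ligated, to keep non-protein-mediated contacts. All mESC groups share the cell line, and both mOPC groups share theirs.

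B1 elements descend from the 7SL RNA of the signal recognition particle, a short RNA polymerase III transcript, and spread through the rodent genome by retrotransposition. They carry an internal RNA polymerase III promoter made of an A box and a B box. Most copies lie in introns or between genes, so that a B1 sequence found in nuclear RNA is usually a piece of a longer RNA polymerase II transcript, such as a pre-mRNA. Proto-B1 names (PB1, PB1D7 to PB1D11) and the B1F names mark old copies, while B1-Mur, B1-Mus and B1-Mm mark progressively younger ones.

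Elements that the results below turn on are printed here 5′ to 3′ on their own strand, from GRCm38.p6, the assembly called mm10 in the processing notes, with the strand in brackets. Capitals mark a match to GTTCGANNC, a form of the B box, and were searched on both strands. The first element lay in the exon of Malat1, the B1-Mus2 element in the exon of Neat1, and the PB1D10 element in an exon of a noncoding Ppp1cb transcript. The others were intronic.
Malat1 B1-Mus1, chr19:5801969-5802116 (-): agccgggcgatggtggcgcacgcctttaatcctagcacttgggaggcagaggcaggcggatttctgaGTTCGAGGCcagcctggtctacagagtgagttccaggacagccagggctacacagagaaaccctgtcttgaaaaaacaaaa
Neat1 B1-Mus2, chr19:5833516-5833638 (-): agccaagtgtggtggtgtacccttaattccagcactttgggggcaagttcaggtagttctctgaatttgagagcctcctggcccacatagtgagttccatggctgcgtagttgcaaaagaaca
5031425E22Rik PB1D11, chr5:23404343-23404448 (-): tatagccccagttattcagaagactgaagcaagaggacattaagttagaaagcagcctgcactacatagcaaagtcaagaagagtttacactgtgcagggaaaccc
5031425E22Rik PB1, chr5:23411743-23411857 (-): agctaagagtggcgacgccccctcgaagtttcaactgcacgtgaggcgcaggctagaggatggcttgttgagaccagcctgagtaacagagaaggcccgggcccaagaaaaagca
5031425E22Rik B1-Mur1, chr5:23420941-23421039 (-): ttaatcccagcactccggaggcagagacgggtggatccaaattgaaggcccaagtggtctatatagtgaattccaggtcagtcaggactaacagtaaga
Ppp1cb PB1D10, chr5:32483666-32483761 (+): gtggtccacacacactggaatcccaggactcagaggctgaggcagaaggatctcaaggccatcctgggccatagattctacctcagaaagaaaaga
Fgfr2 B1F, chr7:133060836-133060983 (-): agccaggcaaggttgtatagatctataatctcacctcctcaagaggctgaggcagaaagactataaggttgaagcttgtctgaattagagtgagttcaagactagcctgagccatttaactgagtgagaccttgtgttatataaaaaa
Of these 7 elements, the B box form was found in the Malat1 element, starting at base 68. Among all 69536 B1 elements with a tag, 5.70% held it on their own strand and 0.0546% on the other strand. Windows of the same length placed 1000 bases downstream held it in 0.413%. The share was 29.4% for B1-Mm, 21.2% for B1-Mus2 and 20.6% for B1-Mus1, against 0.466% for PB1D10.

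The files listed between 251802 and 2832717 interactions per library, of which 3636 to 51690 were B1. These totals are interactions of the RNA and 25-kb bin pairs that the authors called significant, not sequencing depth, and 1 list of pairs was shared by the replicates of a group, so the spread between replicates understates the full error. Per the study's methods, replicates were batches of 1 cell line taken at different passages, so the p-values below measure the spread between such batches.

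B1 tags took the largest part in mESC 1FA and mESC 2FA and the smallest in mOPC NPM. The share of all interactions was 1.80%, 1.76% and 1.82% in the mESC 1FA libraries, with 1.88%, 1.82% and 1.93% for mESC 2FA. The mOPC 1FA libraries had 1.34%, 1.35% and 1.42%. Values were 1.45% and 1.44% in mESC ActD4, 1.46% and 1.56% in mESC NPM, and 1.11% and 1.19% in mOPC NPM. The mESC 1FA and 2FA libraries overlapped, and each of the other groups lay apart from the 1FA group it is compared with. Means were 1.80% ± 0.035 (SD, n = 3) in mESC 1FA and 1.37% ± 0.040 (SD, n = 3) in mOPC 1FA. An exact two-sided permutation test gave p = 0.1 for each of the 4 groups that lay apart, which is the smallest value these designs allow, and p = 0.2 for 2FA. With both cell types in 1 exact permutation test, NPM was 0.254 points below 1FA (p = 0.01, adjusted p = 0.0583 over 7 comparisons), and with both conditions mOPC was 0.392 points below mESC (p = 0.0167, adjusted p = 0.0583), each at the smallest p possible. The direction of the NPM difference turned when each transcript and bin pair was counted once: 4.43 points more of the listed pairs held a B1 tag in mESC NPM than in mESC 1FA, and 7.81 points more in mOPC. A pair with more interactions is more likely to hold a B1 tag. This count thus depends on interactions per pair, and nothing is read from its direction.

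**Figure D1:**
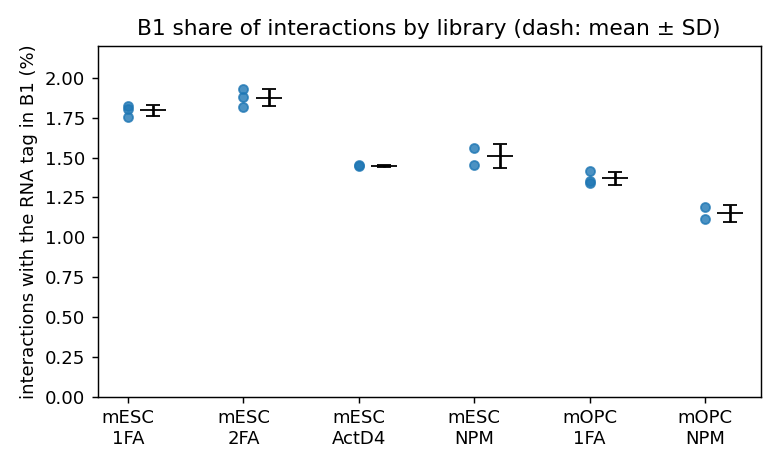
The percentage of all listed interactions whose RNA tag lay in a B1 element is plotted for each library, by group, with dashes for the mean and bars for the SD. The mESC 1FA and 2FA libraries overlap between 1.76% and 1.93%, and the mOPC NPM libraries sit lowest, at 1.11% and 1.19%.

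B1 tags came from introns of protein-coding genes. Introns held 93.3% of them in mESC 1FA, against 83.6% of tags without a repeat, and 91.2% against 75.9% in mOPC 1FA. The gap was wider in NPM, with 89.3% against 64.7% in mESC and 85.2% against 65.4% in mOPC. Coding sequence held 0.040% of B1 tags and 6.14% of no-repeat tags in mESC 1FA, and 0.034% and 20.2% in mESC NPM. Long noncoding RNAs gave 6.95% of B1 tags in mOPC 1FA and 2.01% in mESC 1FA, where they gave 18.1% and 4.36% of tags without a repeat. The main comparisons of distance below are therefore also given within the same genes, and in part within introns.

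The tags were spread thinly, over 69536 elements in 10499 host genes, and 18834 elements were seen once. The 10 most captured elements of a library held 0.772% of B1 tags in mESC 1FA and 3.85% in mOPC 1FA. Each element was cut into 10 equal parts from its 5′ end, and part 10 was tagged most often, with 17.8% ± 1.2 (SD, n = 3) of tags in mESC 1FA and 18.98% ± 1.1 (SD, n = 3) in mOPC 1FA. Part 3 held 13.5% in mESC 1FA and 10.04% in mESC NPM, and 12.3% in mOPC 1FA and 8.83% in mOPC NPM. Part 1 held 10.4% in mESC 1FA and 12.5% in mESC NPM, and 11.8% in mOPC 1FA and 14.3% ± 2.4 (SD, n = 2) in mOPC NPM. The 1FA groups thus held more of their tags in part 3 than NPM did, as a description with no test.

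Old names gave the largest shares of B1 tags, which were not set against the number of copies of each name in the genome or in introns. PB1D10 gave 15.1% ± 0.050 of B1 interactions in mESC 1FA and 15.7% ± 0.29 in mOPC 1FA (SD, n = 3), from 10299 elements. B1F came next with 10.2% in mESC 1FA, followed by PB1D9 with 9.09%, B1-Mur1 with 8.76%, B1-Mur2 with 7.84% and B1-Mus1 with 7.28%. B1-Mur4 (6.68%), PB1D7 (6.25%), B1-Mus2 (5.61%), B1-Mur3 (4.93%), B1F1 (4.64%), PB1D11 (4.35%), B1F2 (3.81%), PB1 (3.38%) and B1-Mm (2.13%) gave the rest, besides FAM, which had 19 elements. Among the 15 larger names, interactions per element over all libraries were lowest for the young ones, at 4.24 for B1-Mm, 4.36 for B1-Mus2 and 4.65 for B1-Mus1, and highest for PB1 at 6.79. Reads had to map to 1 place in the genome, and the part this plays in the order of old and young names was not tested.

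Capture of the names was compared between groups with limma on log2 scaled counts, over 803 repeat names of every family. In mOPC 1FA against mESC 1FA, 13 of 15 B1 names were lower and 0 higher at an adjusted p below 0.05, where 18.1% of all names were called and 9.96% were called lower. Their median log2 difference was -0.45, against -0.05 over all names. PB1D9 fell most (log2 -0.66 ± 0.05 SE, adjusted p = 1.09e-06 by limma), and PB1D10 fell by 0.39 ± 0.05. By limma, B1-Mus1 (log2 -0.25, adjusted p = 0.217) and PB1 (log2 -0.21, adjusted p = 0.0537) did not pass. In mESC NPM against mESC 1FA, 7 of 15 were lower (16.9% of all names called, 11.8% lower), among them B1-Mur4 at log2 -0.41 and PB1D9 at -0.31. This count was 1 without the variance trend and 4 with the compared groups alone in the fit. In mOPC NPM against mOPC 1FA 5 of 15 were lower (4.61% called, 3.49% lower), and the count was 0 without the variance trend, 3 with the compared groups alone and 10 when libraries were scaled by all interactions. Actinomycin D gave 0 of 15 (19.1% called; 0 at an unadjusted p below 0.05), but 14 lower when scaled by all interactions, where the median of all names was -0.50 and that of the B1 names -0.30. The 2FA group gave 0 of 15 in a comparison that called 0% of names (0 B1 names and 11 names in all at an unadjusted p below 0.05).

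Between the cell types, B1 elements were called about as often as repeat elements of all families. Of 3272 repeat elements with at least 10 tags in at least 2 libraries, 373 were B1, and in mOPC 1FA against mESC 1FA 75 of these were higher and 175 lower, or 67.0% called, where 66.2% of all elements were. The higher ones were 20.1% of B1 elements and 28.5% of all elements, and the lower ones 46.9% and 37.7%, a difference that was not tested. The filter bears on this split. In mESC 1FA alone 199 of the 373 B1 elements reached the minimum, and in mOPC 1FA alone 99 did. Of all 3272 elements 1529 and 1152 did, so nothing is read from the split. The B1-Mus1 element of Malat1 had 78, 65 and 37 tags in the mESC 1FA libraries and 485, 512 and 326 in mOPC 1FA, a difference of 3.34 ± 0.61 (log2, SE; adjusted p = 0.000384 by limma). The PB1D11 element of 5031425E22Rik, a noncoding RNA, had 1, 2 and 0 tags in mESC 1FA and 173, 127 and 159 in mOPC 1FA. The libraries of both cell types were separate for either element. The PB1D11 element reached the minimum of tags only through mOPC libraries. Separate groups were also a ground for naming it, so its values are a description.

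The other named elements divided the same way, and each reached the minimum of tags only through the cell line where it is high. The B1-Mur1 element of 5031425E22Rik had 3, 4 and 2 tags in mESC 1FA and 77, 83 and 97 in mOPC 1FA. The PB1D10 element of Ppp1cb, a catalytic subunit of protein phosphatase 1, had 7, 3 and 5 tags against 128, 103 and 29, so the third mOPC library held the fewest of its group. The B1F element in the gene model of Fgfr2, a fibroblast growth factor receptor, went the other way, with 50, 35 and 36 tags in mESC 1FA and 1, 3 and 3 in mOPC 1FA (log2 -3.45 ± 0.50 SE). That model spans a long stretch and overlaps Ctbp2 at this place. Over elements of all families together, most of those called in ActD4 and NPM were lower. In mESC ActD4 98 B1 elements were lower and 1 higher, or 26.5% called, where 22.7% of all elements were called and 21.7% were lower. The counts were 193 and 0 in mESC NPM, or 51.7% of B1 elements, where 38.4% of all elements were called and 37.5% were lower. They were 83 and 4 in mOPC NPM, or 23.3%, where 19% of all elements were called and 17% were lower. These gaps between B1 and all elements were not tested. The filter favours this direction: 199 of the 373 B1 elements reached 10 tags in at least 2 libraries of mESC 1FA alone, against 0 in ActD4, 1 in mESC NPM and 11 in mOPC NPM, so nothing is read from the splits. With voom precision weights the ActD4 split was 42 higher and 23 lower and the mESC NPM split 28 higher and 179 lower, so the direction in ActD4 depends on how the small libraries are weighted. The 2FA group gave 0 (0% called; 8 of 373 B1 elements at an unadjusted p below 0.05).

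The distance between the RNA tag and the DNA tag was compared next, over non-self interactions, in which the DNA tag did not fall in the gene that made the RNA. In 1FA nuclei B1 tags lay nearer to their origin than tags without a repeat. At 10 to 100 kb the B1 libraries of mESC 1FA held 26.5%, 27.9% and 26.7% of interactions, against 20.6%, 22.02% and 20.95% of no-repeat tags, and those of mOPC 1FA held 27.7%, 26.3% and 27.1% against 15.3%, 14.9% and 15.2%. Between chromosomes (trans) B1 tags held 0.386%, 0.455% and 0.238% in mESC 1FA against 4.30%, 3.33% and 2.49%, and 2.88%, 2.93% and 2.17% in mOPC 1FA against 22.3%, 19.99% and 18.6%. In all 6 libraries B1 was above at 10 to 100 kb and below in trans.

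Over the 6 libraries the B1 minus no-repeat difference was 8.88 points at 10 to 100 kb, 6.32 at 100 kb to 1 Mb, -4.09 at 1 to 10 Mb, -1.24 beyond 10 Mb and -10.3 in trans. An exact two-sided sign-flip permutation test over libraries gave p = 0.03125 for each, the smallest that 6 libraries allow, and adjusted p = 0.0365 over 7 distance classes. At 1 to 10 kb the difference was 0.53 points (p = 0.156 by the same exact test), and within 1 kb it was -0.067 points (p = 0.03125). The 100 kb to 1 Mb difference fell to 0.624 points and no longer passed when the 10 most captured transcripts were left out, and within introns the trans difference was -0.0646 points (exact p = 0.0625). With groups thinned to equal totals and pairs of at least 5 interactions, no class passed after adjustment, though 10 to 100 kb differed by 15.3 points (adjusted p = 0.109 by the exact test).

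The same comparison within genes gave much smaller differences beyond 10 kb and in trans, though not within 10 kb. The no-repeat tags of each host gene were weighted by that gene's B1 tags, and at least 99.8% of non-self B1 tags lay in genes that also had no-repeat tags in the library. At 10 to 100 kb the B1 level of 27.04% ± 0.75 (SD, n = 3) in mESC 1FA then stood against 26.9% for no-repeat tags of the same genes, and 27.04% ± 0.66 in mOPC 1FA against 26.3%. The difference was 0.292, 0.094 and 0.063 points in the mESC libraries and 0.643, 0.683 and 0.663 in the mOPC libraries, so it was positive in all 6 and larger in mOPC. Its mean was 0.406 points (exact sign-flip p = 0.03125, adjusted p = 0.0729). At 1 to 10 kb B1 tags were lower by 0.565 points on average (difference -0.565, same exact p and adjusted p), and within 1 kb the difference was -0.095. Within introns of the same genes it was 0.328 points at 10 to 100 kb (exact p = 0.0625), with the second mESC library at -0.080, -0.119 at 1 to 10 kb and -0.0379 within 1 kb (exact p = 0.03125 for both, adjusted p = 0.109). In trans the same-gene difference over tags of all regions was -0.014 points (exact p = 0.469), with mESC libraries at -0.028, -0.060 and -0.023 and mOPC libraries at 0.032, -0.038 and 0.035. When each transcript and bin pair was counted once, the same-gene difference at 10 to 100 kb was 6.34 points and passed the test. The closeness of B1 and no-repeat tags was thus seen for interactions. Counting pairs once merges both kinds of tag unequally, since B1 tags are fewer per gene, so nothing is read from that gap. In the first mOPC 1FA library 560 B1 interactions of 5031425E22Rik fell in 210 bins, and 9362 no-repeat ones in 461.

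**Figure D2:**
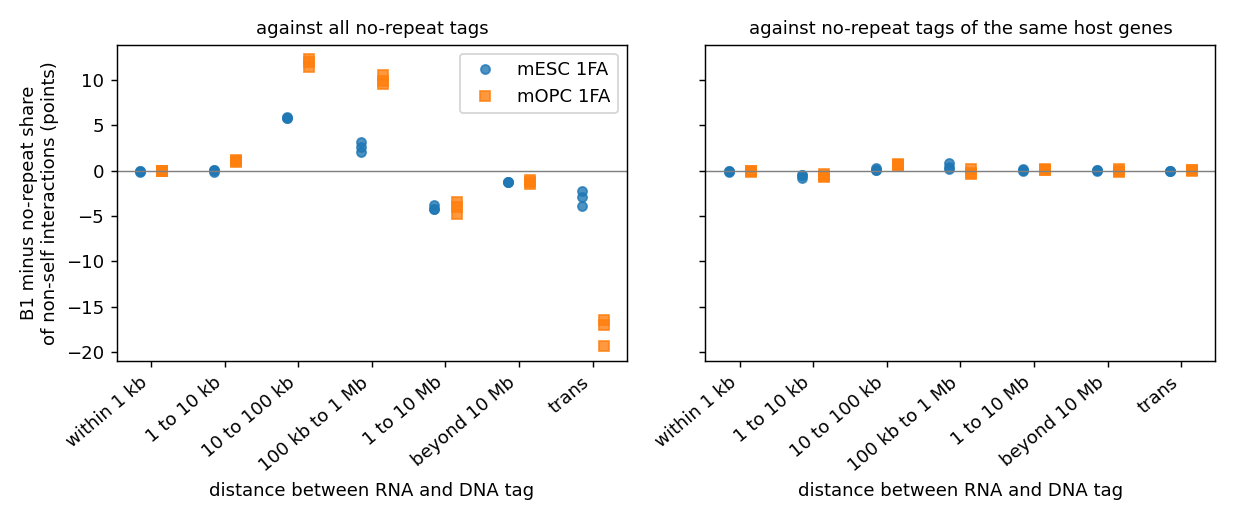
The B1 minus no-repeat share of non-self interactions, in percentage points, is plotted by distance class for each 1FA library against all tags without a repeat and against no-repeat tags of the same host genes. Differences of 8.88 points at 10 to 100 kb and -10.3 points in trans shrink to 0.406 and -0.014 points within the same genes.

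Single host genes showed the same closeness. In mESC 1FA 114 genes had at least 100 non-self tags of each kind over the 3 libraries, and the B1 share at 10 to 100 kb was above the no-repeat share in 59 and below it in 55, with a median difference of 0.13 points. It lay within 5 points in 100 of the 114. In mOPC 1FA 37 genes qualified, with 23 above, 14 below, a median difference of 0.26 points and 34 within 5 points. Across these genes the shares of both kinds of tag had a Pearson correlation of 0.951 in mESC and 0.973 in mOPC, given as a description since both are taken from the same genes and libraries. Individual genes ranged widely. At 10 to 100 kb lay 8.34% of the B1 tags of 5031425E22Rik in mOPC 1FA, as did 8.27% of its no-repeat tags, and Ppp1cb had 11.5% and 11.1%. For Jarid2, a partner of the Polycomb repressive complex 2, the values in mESC 1FA were 3.38% and 3.20%.

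**Figure D3:**
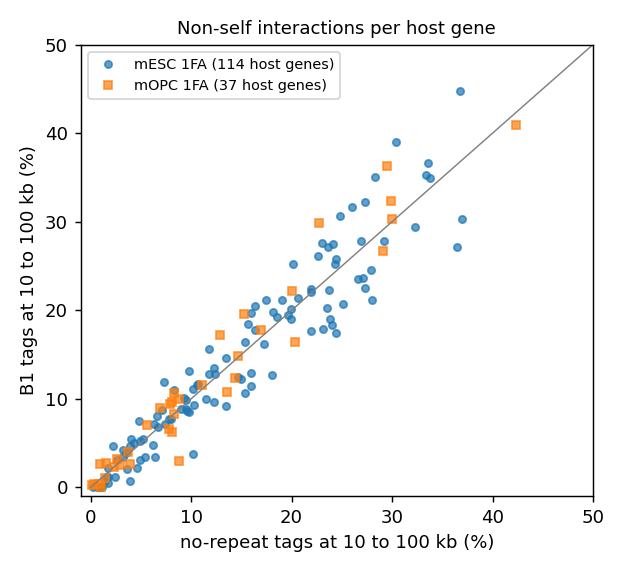
Each point is a host gene with at least 100 non-self B1 tags and 100 non-self no-repeat tags in mESC 1FA (114 genes) or mOPC 1FA (37 genes), with the percentage of its no-repeat tags at 10 to 100 kb on the x axis and that of its B1 tags on the y axis. The grey line marks equal shares, and 100 mESC and 34 mOPC genes lie within 5 points of it.

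Most trans contacts of B1 tags in mOPC 1FA came from 1 element. Malat1, a long noncoding RNA of nuclear speckles that is known for contacts across the genome, has 1 tagged B1 element, the B1-Mus1 copy printed above. In mOPC 1FA 95.9%, 96.1% and 96.0% of its tags were trans, against 95.2%, 95.9% and 95.7% of the no-repeat tags of Malat1. In mESC 1FA the values were 91.0%, 93.8% and 94.6% against 92.6%, 92.5% and 92.0%. The B1 and no-repeat values overlapped in both cell types.

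The 1323 Malat1 B1 interactions of mOPC 1FA touched 1240 bins of 25 kb, and 1270 of them were trans, on 20 chromosomes. In mOPC 1FA they made up 87.04% ± 4.4 (SD, n = 3) of the trans contacts of B1 tags, against 47.1% ± 6.4 for mESC 1FA and 1.30% ± 0.31 (SD, n = 2) for mESC NPM. Malat1 gave a larger part of the trans contacts of no-repeat tags, at 94.0% ± 1.0, 84.4% ± 5.0 and 5.75% ± 1.3 in these groups. Neat1, the scaffold RNA of paraspeckles, gave a smaller example. Its B1 tags in mOPC 1FA were 68.5% ± 0.84 trans, against 65.4% ± 3.2 of its no-repeat tags (SD, n = 3), from 35, 37 and 39 tags. In mESC 1FA 2 B1 tags of Neat1 were listed per library and 0 were trans, a count too small to set against the 1.70% of its no-repeat tags.

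By name, B1-Mus1 stood out in mOPC 1FA, with 25.6% ± 3.9 of its non-self interactions in trans (SD, n = 3), followed by B1-Mus2 with 1.65% ± 0.22 and PB1D9 with 0.95% ± 0.15. The other 13 names had 0.67% or less. Without Malat1 and Neat1 the B1-Mus1 share was 0.16%, that of B1-Mus2 0.22% and that of PB1D9 0.10%. Counting self interactions too, the trans share of B1 tags was 1.43 points higher in mOPC 1FA than in mESC 1FA, with all mOPC libraries (1.76%, 1.92% and 1.35%) above all mESC libraries (0.272%, 0.312% and 0.163%; exact permutation p = 0.1, the smallest possible). Leaving out Malat1 and Neat1 made that difference -0.0076 points.

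**Figure D4:**
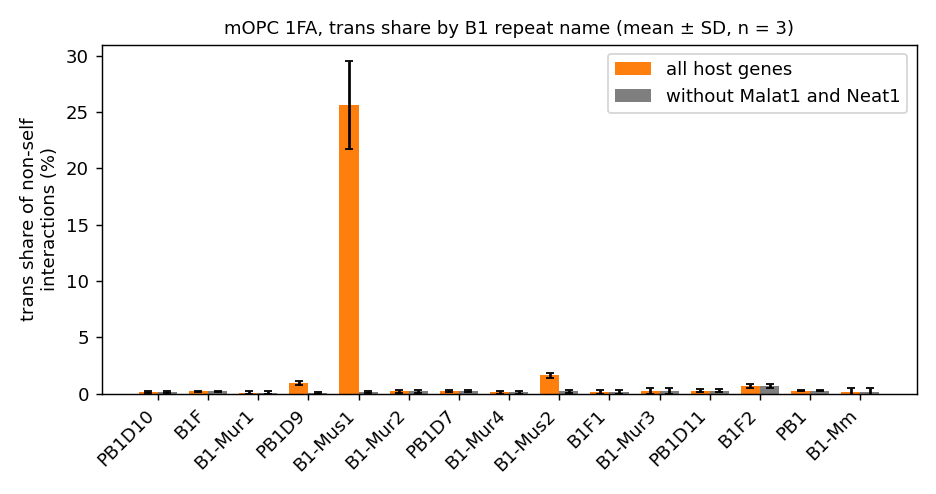
Bars give the mean trans share of non-self interactions for each B1 repeat name in mOPC 1FA, with SD over 3 libraries, for all host genes and without Malat1 and Neat1. B1-Mus1 drops from 25.6% to 0.16%, and the other names are low in both.

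Without protein, B1 tags lay next to their own origin. Within 1 kb lay 3.52%, 4.98% and 4.02% of all B1 interactions in mESC 1FA and 94.6% and 93.7% in mESC NPM, which were 89.9 points apart on average. In mOPC the values were 7.60%, 4.29% and 5.93% against 96.4% and 93.04%, or 88.8 points apart. The groups lay far apart in both cell types, and the exact permutation p was 0.1 in each, the smallest possible. The median distance of B1 tags on the same chromosome was 103135 bases in mESC 1FA (mean of the library medians) and 230 bases in mESC NPM, where tags without a repeat had 271.5 bases.

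Among all interactions, NPM tags from B1 were within 1 kb more often than tags without a repeat. In mESC NPM 94.1% ± 0.65 of B1 tags were within 1 kb against 84.8% ± 1.2 of no-repeat tags, and in mOPC NPM 94.7% ± 2.4 against 86.6% ± 1.0 (SD, n = 2). Within the same host genes the difference remained, at 8.68 ± 1.3 and 6.28 ± 1.8 points. Within introns it was small: 94.3% of intronic B1 tags against 93.3% of intronic no-repeat tags in mESC NPM, and 96.9% against 95.8% in mOPC NPM, or 0.924 ± 0.27 and 0.554 ± 0.009 points within the introns of the same genes. Among non-self interactions the order was the opposite, with 3.83% ± 0.80 of B1 tags against 6.50% ± 2.6 of no-repeat tags within 1 kb in mESC NPM. In mOPC NPM the values were 2.53% ± 2.0 against 5.43% ± 0.35 (SD, n = 2). Self interactions made up 95.5% to 98.2% of B1 tags in the NPM libraries, so these shares rest on few tags. Within the same host genes the non-self gap was smaller, at -0.845 ± 1.0 points in mESC NPM and -0.844 ± 0.37 in mOPC NPM. These levels within NPM were not tested. Against 1FA, the B1 minus no-repeat difference within 1 kb was 9.91 points higher in mESC NPM and 7.49 points higher in mOPC NPM (exact permutation p = 0.1 each, the smallest possible).

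**Figure D5:**
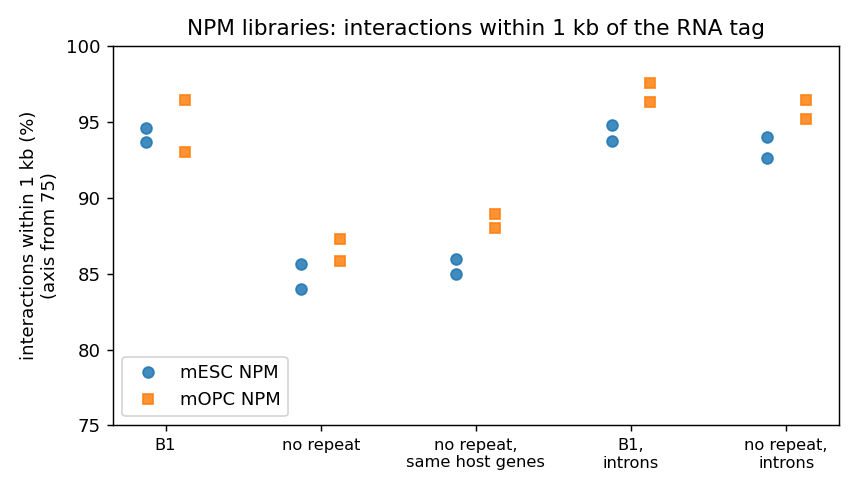
The percentage of interactions within 1 kb is plotted for each NPM library for B1 tags, all no-repeat tags, no-repeat tags of the same genes, and intronic B1 and no-repeat tags, on an axis that starts at 75. B1 tags lie above the no-repeat tags by 7.2 to 10.6 points in the 4 libraries, and intronic tags of both kinds lie together between 92.6% and 97.5%.

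The remaining NPM contacts depended on few bins and libraries. Trans interactions were 2.94% and 4.17% of B1 tags in mESC NPM, 3.31 points above mESC 1FA, but the difference was -0.055 points when the 10 bins with the most trans interactions in the series were left out. In mOPC NPM they were 1.51% and 4.03%, 1.10 points above mOPC 1FA (exact permutation p = 0.4), and without the second library the difference was -0.162 points. The Malat1 element had 141 tags in the first of these libraries and 654 in the second.

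B1 tags, like tags without a repeat, reached less far under actinomycin D, though not as near as in NPM. In mESC ActD4 14.2% and 12.8% of B1 interactions were within 1 kb, 9.30 points above mESC 1FA, and interactions beyond 1 Mb were 7.08 points fewer (difference -7.08). The ActD4 libraries lay apart from mESC 1FA in both classes, and the exact permutation p was 0.1 for both, the smallest possible. Of no-repeat tags, 4.78% lay within 1 kb in mESC 1FA and 15.3% in ActD4. The B1 minus no-repeat difference changed by -1.22 points within 1 kb and by 2.94 points beyond 1 Mb (exact permutation p = 0.1 for both). The median same-chromosome distance was 24604 bases in ActD4, against 26688 for tags without a repeat. In 2FA the share beyond 1 Mb was 1.77 points lower than in 1FA (difference -1.77, exact p = 0.1), and the share within 1 kb was 1.65 points higher with overlapping libraries (exact permutation p = 0.2). No-repeat tags shifted by about as much. The B1 minus no-repeat difference changed by -0.012 points beyond 1 Mb and -0.24 points within 1 kb (exact permutation p = 0.9 and 0.4).

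Host genes showed where B1 tags came from. The 10 genes with the highest mean B1 share over the 6 groups were Malat1, 5031425E22Rik, Gm20388, Pvt1, Ppp1cb, Fgfr2, Rere, Jarid2, Macf1 and Pitpnc1. The 10 leading hosts of each library, taken library by library, held 3.59% of B1 tags in mESC 1FA and 7.89% in mOPC 1FA. Malat1 was 0.128% ± 0.049 of B1 tags in mESC 1FA and 1.53% ± 0.34 in mOPC 1FA, yet 2.10% and 13.2% of tags without a repeat, with 0.125 and 0.172 B1 tags per 100 no-repeat tags. 5031425E22Rik held 1.99% of B1 tags in mOPC 1FA from 16 elements, at 5.82 B1 tags per 100. Pvt1, the noncoding neighbour of Myc, had 1.18 and 1.32 per 100 in mESC and mOPC 1FA.

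The ratio varied among the coding hosts. Ppp1cb held 1.32% ± 0.37 of B1 tags in mOPC 1FA with 9.47 ± 0.53 B1 tags per 100 no-repeat tags, and 8.39 ± 0.22 per 100 in mESC 1FA (SD, n = 3). Macf1, a crosslinker of microtubules and actin, had 3.21 and 3.46 per 100, Pitpnc1, a phosphatidylinositol transfer protein, 4.00 and 3.08, Rere, a transcriptional corepressor, 2.74 and 2.74, and Jarid2 1.37 and 1.04. The gene models Gm20388 (301 elements) and Fgfr2 (95 elements) had 1.46 and 1.01 per 100 in mESC 1FA.

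Capture of B1 tags per host gene was compared over 1864 genes with limma. In mOPC 1FA against mESC 1FA 294 genes were higher and 345 lower (34.3% called), with a median log2 difference of -0.24. Scaling by all interactions gave 209 higher and 567 lower with a median of -0.91, so the split depends on the scaling. For each of the 20 genes given in the next 4 paragraphs, the share of no-repeat tags lay in the same direction as that of B1 tags.

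The 10 genes named as highest in mOPC begin with Lhfpl3. This gene, a marker gene of oligodendrocyte progenitors, had 0 B1 tags in each mESC 1FA library and 107, 121 and 130 in mOPC 1FA, from 27 elements. Sox6, a transcription factor of the progenitor state, had 0 in mESC 1FA and 52, 51 and 52 in mOPC 1FA. Cntn1, a contactin of the cell surface (62, 66 and 80), Bcas1, found in early myelinating cells (56, 61 and 48), and Zeb2, a zinc finger factor of oligodendrocyte maturation (55, 60 and 45), were also listed at 0 in mESC 1FA. A listed 0 means that no called pair held such a tag, not that the RNA was absent.

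Further genes were listed in both cell types. Anks1b, which codes for a synaptic scaffold protein, had 0, 0 and 3 tags in mESC 1FA and 106, 118 and 129 in mOPC 1FA (log2 7.43 ± 0.78 SE). 5031425E22Rik had 13, 14 and 11 against 560, 545 and 611 (log2 6.48 ± 0.39). Dlgap1 of the postsynaptic density had 1, 0 and 2 against 52, 57 and 41, Ank2, an ankyrin, had 3, 0 and 7 against 92, 88 and 82, and Syne1 of the nuclear envelope had 2, 2 and 1 against 64, 52 and 40. All 10 were chosen as called genes whose groups did not overlap, so their values are a description. Only 5031425E22Rik reached the minimum of 10 tags in 2 libraries in mESC 1FA. The others did not reach it there, and those at 0 in mESC 1FA entered the comparison through mOPC alone.

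Among the 10 genes named on the other side, Rbpms, which codes for an RNA-binding protein, had 115, 96 and 113 B1 tags in mESC 1FA and 0 in mOPC 1FA. Esrrb, a nuclear receptor of naive pluripotency, had 84, 59 and 81 B1 tags in mESC 1FA and 0 in mOPC 1FA. Tet1, which oxidises methylated cytosine, had 144, 127 and 165 against 1, 2 and 3 (log2 -4.92 ± 0.29 SE). Cdh1, the E-cadherin of epithelial and stem cells, had 51, 54 and 54 against 0.

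Igf2bp1, an mRNA-binding protein (54, 52 and 46), the calcium channel gene Cacna1a (115, 95 and 101) and Etl4 (116, 78 and 115) were listed at 0 in mOPC 1FA. Usp7, a deubiquitinase, had 113, 105 and 139 tags against 1, 4 and 2, Mybl2, a cell cycle transcription factor, 146, 73 and 90 against 3, 6 and 0, and Plekha7 of adherens junctions 74, 58 and 61 against 4, 0 and 2. These genes too were chosen for groups that did not overlap, and those at 0 entered through mESC alone.

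Lists of marker genes were read next. Of 12 mESC markers, 6 had a B1 tag, and the list summed to 503 to 613 per 100000 B1 tags in mESC 1FA and 3.37 to 10.6 in mOPC 1FA. The 4 with enough tags to be tested were called lower, where 18.5% of all host genes were. Besides Esrrb and Tet1 these were Zfp42, known as Rex1, with 44, 13 and 38 tags in mESC 1FA and 0 in mOPC 1FA, and Tfcp2l1, with 20, 15 and 29 against 0. Of 12 mOPC markers, 8 had a B1 tag, and the list summed to at most 3.87 per 100000 in mESC 1FA. The 5 tested were called higher, where 15.8% of all host genes were. Cspg4, the NG2 proteoglycan, had 22, 24 and 24 tags in mOPC 1FA, Ptprz1, a receptor phosphatase, 20, 15 and 29, and Sox10, the lineage transcription factor, 11, 7 and 8, each against 0 in mESC 1FA. These markers reached the minimum of tags only in the cell type where they are high, so the filter fixed the direction of both lists. The defining factors Pou5f1, Nanog and Sox2 of mESC and Olig1 and Olig2 of mOPC had no B1 tag listed.

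Markers of other cell types were rarely listed. Of 5 neuron markers 2 had a B1 tag, as had 2 of 5 astrocyte, 1 of 5 microglia and 1 of 5 fibroblast markers, and 0 of these were tested. The summed neuron markers reached at most 28.1 per 100000 B1 tags in mOPC 1FA and 12.5 in mESC 1FA, against 715 to 858 for the mOPC list in mOPC 1FA. The list of 10 RNA polymerase III transcripts and relatives of the B1 ancestor held 0 genes with a B1 tag. Of 12 nuclear long noncoding RNAs 7 had a B1 tag and 5 were tested. Malat1 (log2 3.97), Neat1 (4.76) and Pvt1 (1.93) were higher in mOPC 1FA and Tsix, the antisense RNA of Xist, was lower (-4.63), while Kcnq1ot1, an imprinted noncoding RNA, was at 1.06 (adjusted p = 0.231 by limma), where 34.3% of all host genes were called. Neat1 had 2 tags in each mESC 1FA library, and Tsix had 0 in each mOPC 1FA library. Both reached the minimum of tags only in the cell type where they are high, so the filter fixed their direction. The list's median was 1.93, against -0.24 over all genes. The lists were chosen with earlier results of these data known, so their counts are descriptions.

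Hosts were also compared between each treatment and 1FA. Of the 1864 genes, 1351 reached the minimum of 10 tags in 2 libraries in mESC 1FA alone, against 26 in mESC ActD4 and 30 in mESC NPM, and 726 did in mOPC 1FA against 107 in mOPC NPM. A split toward lower genes is therefore built into these comparisons, and nothing is read from it. In mESC ActD4 376 genes were called (20.2%), 13 of them higher, but 109 higher and 147 lower with voom precision weights. Leaving out 1 library gave 213 to 691 genes, over 1.5 times more without the first ActD4 library and over 1.5 times fewer without any of the mESC 1FA libraries. The median over all genes was -0.93. The ActD4 libraries were the smallest of the series, so raw tags are given with the scaled difference. Pdss2, an enzyme of coenzyme Q synthesis, had 73, 66 and 69 B1 tags in mESC 1FA and 2 and 0 in ActD4 (log2 -4.28 ± 0.76 SE), Luc7l2, a splicing factor, 61, 65 and 112 against 5 and 0 (-3.79 ± 0.97), and Spen, an RNA-binding corepressor, 53, 52 and 47 against 1 and 1 (-2.51 ± 0.59). These 3 genes did not reach the minimum in ActD4 and entered through other groups. Relative to library size Gm20388 was higher, with 53 and 36 tags against 201, 166 and 199 (log2 0.92 ± 0.25 SE, adjusted p = 0.0216 by limma).

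In mESC NPM 114 genes were called (6.12%), 2 of them higher, or 101 lower and 92 higher with voom weights. Leaving out 1 library gave 32 to 336 genes, over 1.5 times more without either NPM library and over 1.5 times fewer without any of the mESC 1FA libraries. Tnrc6c, a protein of microRNA silencing, had 132, 88 and 91 tags in mESC 1FA and 5 and 7 in mESC NPM (log2 -1.67 ± 0.30 SE), Map7, a microtubule-associated protein, 53, 55 and 56 against 2 and 5 (-1.64 ± 0.31), and Prrc2b 69, 38 and 45 against 1 and 2 (-2.57 ± 0.58). In mOPC NPM 85 were called (4.56%), 6 of them higher, and leaving out 1 library gave 40 to 123, over 1.5 times fewer without any of the mOPC 1FA libraries. Neat1 was the one named gene that rose, from 35, 37 and 39 tags to 173 and 99 (log2 2.59 ± 0.45, adjusted p = 0.00601 by limma). Zeb2 had 55, 60 and 45 against 4 and 6 (log2 -2.59 ± 0.35 SE), Ppp1cb 462, 427 and 252 against 50 and 62 (-1.94 ± 0.28), and 5031425E22Rik 560, 545 and 611 against 119 and 78 (-1.79 ± 0.43). Tnrc6c, Map7 and Prrc2b did not reach the minimum in mESC NPM, nor Zeb2 in mOPC NPM, and they entered through other groups. The 2FA group gave 0 genes (0% called; 15 at an unadjusted p below 0.05).

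The ratio of B1 to no-repeat tags asked whether B1 tags moved apart from the rest of their host. In mOPC 1FA against mESC 1FA it was higher in 77 genes and lower in 53 (6.97% called), but 8 of the 9 genes with the most extreme ratios had 0 B1 tags in 1 of the cell lines, where the ratio is set by the added 0.5. Among genes with a mean of at least 5 B1 tags in both groups, a filter that leaves out genes lost from either group, 0 of 947 were called (21 at an unadjusted p below 0.05 by limma). The other gene, Usp7, had 5.60 ± 0.49 B1 tags per 100 no-repeat tags in mESC 1FA and 1.09 ± 0.67 in mOPC 1FA (SD, n = 3), from 1, 4 and 2 B1 tags. Under the same filter 0 of 1623 genes were called in 2FA, 0 of 164 in ActD4 and 0 of 248 in mESC NPM (3, 15 and 40 at an unadjusted p below 0.05), against 0.483%, 7.73% and 7.03% of the 1864 genes without it. With 2 added to both counts in place of 0.5, the mESC NPM split of 48 higher and 83 lower became 246 and 39, so its direction depends on the addition.

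In mOPC NPM the ratio was lower in 183 genes and higher in 3 (9.98% called). Genes entered on their B1 tags, and 726 of the 1864 reached that minimum in mOPC 1FA alone against 107 in mOPC NPM. Nothing is therefore read from this split. With a mean of at least 5 B1 tags in both groups, 8 of 531 genes were called, all lower. Coding sequence held 3.42% of no-repeat tags in mOPC 1FA and 13.4% in mOPC NPM, and its part in the ratio was not tested. Jmjd1c, a histone demethylase family member, had 3.66 ± 0.39 B1 tags per 100 no-repeat tags in mOPC 1FA and 1.80 ± 0.09 in mOPC NPM (log2 -0.99 ± 0.26 SE). In mESC NPM Wnk1, a kinase of ion transport, went from 5.04 ± 0.32 to 1.62 ± 0.31 per 100, Tnks2, a tankyrase, from 8.84 ± 0.44 to 2.64 ± 0.96, and Usp34, a deubiquitinase, from 5.06 ± 0.42 to 2.36 ± 1.3. The named ratios were chosen as called with groups that did not overlap. The minimum of B1 tags was reached by 1351 genes in mESC 1FA alone against 30 in mESC NPM. The falls of Wnk1, Tnks2 and Usp34 are therefore a description. Malat1 had a higher ratio in mESC NPM (0.125 to 0.329 per 100, log2 1.43 ± 0.39) and in mOPC NPM (0.172 to 0.518 per 100, log2 1.39 ± 0.39). Malat1 had a mean of at least 5 B1 tags in all these groups, and neither difference was called under that filter, where no ratio was called in mESC NPM. Its 2 mOPC NPM libraries differed widely, with an SD of 0.371 on the latter mean.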

How the data were processed

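RADICL-seq libraries from mESC and mOPC were analysed from the interaction files the authors deposited. Per the study's methods, RNA and DNA tags were aligned separately to mm10 with BWA 0.7.15-r1140, uniquely mapping tags were kept, RNA tags were assigned by strand to genes and RepeatMasker elements, and DNA tags to 25-kb bins. Base calling used CASAVA 1.8, per the labels. The deposited p-value and adjusted p-value columns hold the authors' one-sided binomial test of each transcript and bin pair on pooled replicates, which decided the listed pairs. They were not used here. The other deposited columns hold positions, strands, genes and repeat labels, with no counts.

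An interaction was 1 distinct combination of RNA position, RNA strand, RNA gene and DNA position, counted once however many lines listed it. Shares were compared over libraries with exact two-sided permutation tests, and B1 with no-repeat tags within libraries with an exact sign-flip test (64 assignments). Repeat names, elements (at least 10 tags in at least 2 libraries), B1 tags per host gene and the B1 to no-repeat ratio were fitted over all 15 libraries with limma 3.58.1 in R 4.3.3. The fits used log2 scale with 0.5 added, trimmed-mean scaling (capture only) and Benjamini-Hochberg adjustment. For capture the 0.5 was scaled by library size, so less was added in small libraries. Other steps used Python 3.11.15, pandas 2.3.3, numpy 2.4.6 and pyarrow 21.0.0. Sequences were read from GRCm38.p6. 1 element sequence is not reported here.

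The fits were tested on simulated data for mOPC 1FA against mESC 1FA, with 4-fold changes. They recovered 83.2% of changed names, 26.9% of changed elements, 30.5% of changed host genes (68.6% of those with a mean of at least 50 tags) and 62.0% of changed ratios, so a gene that was not called may still differ. Named host genes were the 10 with the highest mean B1 share and, among called genes with a mean of at least 50 B1 tags in the higher group and groups that did not overlap, up to 10 highest and 10 lowest between cell types, up to 3 of each in other comparisons, and up to 5 of each for the ratio. Named elements were those with the most tags and the leading elements of the largest names. Called elements with a mean of at least 50 tags and groups that did not overlap were added. Members, lists and rules were chosen with earlier results of these data known. Alternatives covered counting, filters, scaling, single libraries and Malat1.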

Additional observations from a re-analysis of the deposited data

Results flagged for a closer look

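The share of all interactions within 1 kb differed between B1 and no-repeat tags in opposite directions in the cell types. The B1 minus no-repeat difference was 0.677 points in mOPC 1FA, where the libraries had 0.643, 0.569 and 0.820, and -0.601 points in mESC 1FA, where they had -0.426, -0.874 and -0.502. Every library of one group thus lay above 0 and every library of the other below it, and the groups were 1.28 points apart (exact permutation p = 0.1, the smallest possible, adjusted p = 0.125 over 15 comparisons). Without Malat1 the mOPC 1FA libraries had -0.194, 0.157 and 0.303 points, with a mean of 0.0885, and those of mESC 1FA -0.510, -0.963 and -0.555, so the opposite directions in every library rest on Malat1. Within the same host genes the difference was below 0 in all 6 libraries, between -1.11 and -0.539 points.

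The same measure was 9.31 points in mESC NPM, with 10.6 and 8.03 in its libraries, against -0.601 points in mESC 1FA. The groups were 9.91 points apart (exact permutation p = 0.1, the smallest possible).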

How the results depend on the processing

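Values below compare B1 with no-repeat tags by distance class in 1FA, then each group with its 1FA group (mOPC 1FA with mESC 1FA), and are differences in percentage points that changed sign or crossed the threshold (adjusted p of 0.05), and their causes were not tested unless stated. With every line of the files counted, all interactions gave -0.113 within 1 kb. With each transcript and bin pair counted once, non-self interactions gave -1.97 at 1 to 10 kb, while all interactions gave -3.34 within 1 kb and 0.365 at 1 to 10 kb, while the same genes gave -0.371 within 1 kb, -1.69 at 1 to 10 kb, 6.34 at 10 to 100 kb, 2.49 at 100 kb to 1 Mb, -5.18 at 1 to 10 Mb, -1.44 beyond 10 Mb and -0.147 in trans. From 1FA, the B1 share differed by 4.43 for mESC NPM, 7.81 for mOPC NPM and 6.12 for both cell types in NPM, and the gap beyond 1 Mb differed by 0.755 for mESC 2FA, and the B1 minus no-repeat gap in trans differed by 0.325 for mESC ActD4. With only tags whose centre lay inside the element, the gap beyond 1 Mb differed by 0.000357 for mESC 2FA. Without the 10 most captured transcripts, non-self interactions gave 0.624 at 100 kb to 1 Mb, while all interactions gave -0.342 within 1 kb and -0.766 at 100 kb to 1 Mb. Between groups, the trans share of B1 tags differed by -0.0183 for mOPC 1FA, and the B1 minus no-repeat gap in trans differed by -0.00474 for mESC 2FA, -0.118 for mESC NPM and -0.607 for mOPC NPM, and the gap beyond 1 Mb differed by 0.0905 for mESC 2FA. Without Malat1, all interactions gave -0.294 within 1 kb and -0.514 at 100 kb to 1 Mb. From 1FA, the B1 minus no-repeat gap in trans differed by -0.00074 for mESC 2FA, -0.138 for mESC NPM and -0.433 for mOPC NPM, and the gap beyond 1 Mb differed by 0.0986 for mESC 2FA. Without the 10 bins with the most trans interactions, the same genes gave 0.0128 in trans. Against 1FA, the trans share of B1 tags differed by -0.0548 for mESC NPM, and the B1 minus no-repeat gap in trans differed by 0.178 for mESC ActD4. In pairs of at least 20 interactions, non-self interactions gave 4.07 at 100 kb to 1 Mb, while all interactions gave -1.38 at 100 kb to 1 Mb, while the same genes gave -0.0724 beyond 10 Mb. Between groups, the gap beyond 1 Mb differed by 0.429 for mOPC 1FA and 0.168 for mESC 2FA, and the B1 minus no-repeat gap in trans differed by 1.81 for mESC ActD4. With groups thinned to equal totals and pairs of at least 5, non-self interactions gave -0.0852 within 1 kb, 15.3 at 10 to 100 kb, 1.05 at 100 kb to 1 Mb, -1.67 at 1 to 10 Mb, -0.242 beyond 10 Mb and -15.02 in trans, while all interactions gave -3.92 at 100 kb to 1 Mb, while the same genes gave -0.0454 at 100 kb to 1 Mb, -0.148 at 1 to 10 Mb, -0.0946 beyond 10 Mb and 0.021 in trans. From 1FA, the gap beyond 1 Mb differed by 0.0964 for mOPC 1FA and 0.0994 for mESC 2FA. In host genes with at least 20 tags of each kind, the same genes gave -0.0799 at 100 kb to 1 Mb. With intronic tags only (chosen after seeing the data), non-self interactions gave 0.723 at 1 to 10 kb and -0.0646 in trans, while all interactions gave 2.4 at 1 to 10 kb, 4.21 at 10 to 100 kb, -1.11 at 100 kb to 1 Mb, -4.4 at 1 to 10 Mb, -1.08 beyond 10 Mb and -0.0361 in trans, while the same genes gave -0.285 at 100 kb to 1 Mb and 0.00779 in trans. Between groups, the trans share of B1 tags differed by -0.00163 for mOPC 1FA, and the B1 minus no-repeat gap in trans differed by -0.0149 for mESC 2FA, -0.0379 for mESC NPM and -0.545 for mOPC NPM, and the gap within 1 kb differed by 0.0249 for mESC 2FA, and the gap beyond 1 Mb differed by 0.189 for mESC 2FA. Without Malat1 and Neat1 (chosen after seeing the data), all interactions gave -0.291 within 1 kb and -0.601 at 100 kb to 1 Mb. From 1FA, the trans share of B1 tags differed by -0.00756 for mOPC 1FA, and the B1 minus no-repeat gap in trans differed by -0.00104 for mESC 2FA, -0.136 for mESC NPM and -0.622 for mOPC NPM, and the gap beyond 1 Mb differed by 0.0991 for mESC 2FA.

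Counts of calls are given for each group against its 1FA group, and mOPC 1FA against mESC 1FA. Scaled by all interactions, B1 names called were 14 for mESC ActD4 and 10 for mOPC NPM. With no filter beyond a total of 15 tags, which tests more features, B1 names called were 2 for mESC ActD4 and 8 for mOPC NPM, B1 elements called were 1834 for mOPC 1FA, 2073 for mESC ActD4, 1924 for mESC NPM and 294 for mOPC NPM, host genes called were 1225 for mOPC 1FA, 1189 for mESC ActD4, 432 for mESC NPM and 151 for mOPC NPM and ratios called were 381 for mOPC 1FA, 674 for mESC ActD4 and 299 for mOPC NPM. Without the variance trend, B1 names called were 1 for mESC NPM and 0 for mOPC NPM and host genes called were 52 for mOPC NPM. With the compared groups alone in the fit, B1 names called were 4 for mESC NPM and 3 for mOPC NPM, B1 elements called were 45 for mESC ActD4 and 33 for mOPC NPM, host genes called were 175 for mESC ActD4 and 28 for mOPC NPM and ratios called were 0 for mESC 2FA, 1 for mESC ActD4, 29 for mESC NPM and 66 for mOPC NPM. With voom weights (chosen after seeing the data), B1 elements called were 65 for mESC ActD4 and host genes called were 193 for mESC NPM. With 2 added in place of 0.5, ratios called were 369 for mOPC 1FA, 686 for mESC ActD4 and 285 for mESC NPM. With the addition scaled to the tag totals (chosen after seeing the data), ratios called were 57 for mOPC 1FA, 0 for mESC 2FA and 231 for mESC ActD4. With a mean of at least 5 B1 tags in both groups, which tests fewer genes and was chosen after seeing the data, ratios called were 0 for mOPC 1FA, 0 for mESC 2FA, 0 for mESC ActD4, 0 for mESC NPM and 8 for mOPC NPM. With both that minimum and the compared groups alone, ratios called were 1 for mOPC 1FA, 0 for mESC 2FA, 0 for mESC ActD4, 6 for mESC NPM and 37 for mOPC NPM.

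The labels share replicate numbers without saying that they pair the samples. Deviations from the group means correlated by 0.118, 0.0775 and 0.123 between same-numbered 2FA and 1FA libraries and by -0.012 to 0.0522 in the other comparisons. Between differently numbered 2FA and 1FA libraries the correlations were lower, from -0.12 to 0.000529. Whether same-numbered 2FA and 1FA libraries share a batch was not tested. The correlations were small and no label states pairs, so the numbers were not taken as pairs. With the replicate number as a block, B1 names called were 2 for mOPC NPM, host genes called were 43 for mOPC NPM and ratios called were 74 for mESC NPM. The block also made the B1 minus no-repeat trans difference of mESC ActD4 against mESC 1FA 0.0432. Other calls were within 1.5 times the unblocked count.

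Leaving out 1 library at a time, non-self differences ranged from -0.073 to -0.0597 within 1 kb, 0.4 to 0.657 at 1 to 10 kb, 8.19 to 9.49 at 10 to 100 kb, 5.46 to 7.17 at 100 kb to 1 Mb, -4.2 to -3.95 at 1 to 10 Mb, -1.29 to -1.2 beyond 10 Mb and -11.9 to -8.51 in trans. The differences over all interactions ranged from -0.118 to 0.221 within 1 kb, 2.39 to 3.09 at 1 to 10 kb, 5.43 to 6.4 at 10 to 100 kb, 1.74 to 2.261 at 100 kb to 1 Mb, -2.99 to -2.78 at 1 to 10 Mb, -0.892 to -0.832 beyond 10 Mb and -7.97 to -5.73 in trans, and the same-gene differences ranged from -0.0986 to -0.0903 within 1 kb, -0.601 to -0.523 at 1 to 10 kb, 0.351 to 0.475 at 10 to 100 kb, 0.0186 to 0.26 at 100 kb to 1 Mb, 0.0672 to 0.123 at 1 to 10 Mb, -0.00294 to 0.0573 beyond 10 Mb and -0.0234 to -0.00446 in trans. With 5 libraries the smallest sign-flip p is 0.0625, so no class could pass. The trans share of mOPC NPM against mOPC 1FA ranged from -0.162 to 2.36, the B1 minus no-repeat difference beyond 1 Mb of mESC 2FA from -0.12 to 0.0571 and that in trans of mESC ActD4 from -0.556 to 0.0432, each through 0. Calls for mESC ActD4 ranged from 0 to 1 names, 66 to 163 elements and 213 to 691 host genes, the highest of each without its first library, and host genes fell by over 1.5 times without any of the mESC 1FA libraries. Calls for mESC NPM ranged from 4 to 7 names (lowest without its first library), 121 to 163 elements (lowest without the third mESC 1FA library), 32 to 336 host genes (highest without its second library and also raised by over 1.5 times without its first, lowest without the third mESC 1FA library and also over 1.5 times fewer without either of the other two) and 68 to 138 ratios (lowest without the first mESC 1FA library, and over 1.5 times fewer without either of the other two). Calls for mOPC NPM ranged from 0 to 4 names (lowest without its first library, and 1 without the third mOPC 1FA library), 49 to 70 elements and 40 to 123 host genes (both lowest without the second mOPC 1FA library, and over 1.5 times fewer without the first, as were host genes without the third).

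Of the comparisons between cell types under 1FA, the 13 B1 names called lower stayed at 13 in number without any single library. The files list pairs above the authors' threshold, set on pooled replicates and on totals that differ between groups, so library totals, listed zeros and trans shares depend on it. In the exact permutation test, a single comparison of groups of 2 and 3 libraries cannot reach p below 0.1.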
